A study of Mus musculus with 31 samples.

Results

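The genes that load, move, take up and store cholesterol in lipoproteins were followed in CD11b+ microglia and temporo-occipital cortex of 13-month-old mice. They were *Apoe*, *Clu*, *Lpl*, *Lrp1*, *Abca1*, *Abcg1*, *Lipa*, *Soat1* and *Ch25h*, chosen by name for their function with earlier results of these data known. These 9 genes were among 55401 genes counted in 31 RNA-seq libraries. Female CD11b+ libraries came from mice without the APP/PS1 transgenes (A-/wt/wt, n = 7), from APP/PS1 mice (A+/wt/wt, n = 4) and from APP/PS1 mice homozygous for PLCG2-P522R (A+/ki/ki, n = 4). Male CD11b+ libraries came from mice without the transgenes, either A-/wt/wt (n = 3) or A-/ki/ki (n = 4). Female cortex libraries were A-/wt/wt (n = 1), A+/wt/wt (n = 4) and A+/ki/ki (n = 4), with wt/wt or ki/ki giving the *Plcg2* genotype. APP/PS1 mice carry a mouse/human chimeric APP with the Swedish mutations and human PS1 without exon 9, both driven by the mouse prion protein promoter, and they deposit β-amyloid. The P522R change in PLCG2, a phospholipase of microglia and other immune cells, is linked to protection against Alzheimer's disease in humans and was knocked into the mouse gene. All lines were on a C57Bl/6J background. Neither male APP/PS1 mice nor female A-/ki/ki mice were analysed here.

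In the brain, cholesterol travels between cells in small lipoprotein particles whose main protein is APOE, made largely by astrocytes and, around plaques, by microglia. The transporters ABCA1 and ABCG1 load cholesterol onto these particles, lipoprotein lipase (LPL) splits the triglycerides of lipoproteins, and receptors such as LRP1 take the particles up. Inside the cell, lysosomal acid lipase (encoded by *Lipa*) frees cholesterol from its esters, SOAT1 esterifies it again for storage in lipid droplets, and CH25H makes 25-hydroxycholesterol, an oxysterol that acts as a ligand of the sterol-sensing receptor LXR and restrains cholesterol synthesis. *Apoe* and *Lpl* are textbook members of the gene set that microglia raise near amyloid plaques.

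The sequences immediately before and after the transcription start are shown for *Apoe* and *Ch25h*, which rose together in microglia of APP/PS1 mice, and for the exporter gene *Abca1*, for which no difference passed the test there. They are RefSeq promoter windows of GRCm38.p6, 250 bases before to 50 bases after the start, written 5′ to 3′ along the gene. *Apoe* lies on chr7:19696109-19699188, *Ch25h* on chr19:34473778-34475164 and *Abca1* on chr4:53030787-53159895, all on the minus strand. The windows span chr7:19699139-19699438, chr19:34475099-34475398 and chr4:53159846-53160145.
Apoe: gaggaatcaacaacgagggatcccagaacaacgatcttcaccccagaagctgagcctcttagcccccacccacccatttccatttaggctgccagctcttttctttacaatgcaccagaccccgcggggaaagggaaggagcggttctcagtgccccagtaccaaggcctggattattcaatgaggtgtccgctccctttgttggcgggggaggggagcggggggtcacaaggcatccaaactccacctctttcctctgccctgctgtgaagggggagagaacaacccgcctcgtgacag
Ch25h: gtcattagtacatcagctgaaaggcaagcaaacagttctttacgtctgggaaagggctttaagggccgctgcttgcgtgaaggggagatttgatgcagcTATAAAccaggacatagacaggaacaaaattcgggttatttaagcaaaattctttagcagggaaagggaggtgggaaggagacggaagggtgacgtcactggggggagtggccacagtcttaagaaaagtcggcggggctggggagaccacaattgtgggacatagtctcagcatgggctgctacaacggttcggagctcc
Abca1: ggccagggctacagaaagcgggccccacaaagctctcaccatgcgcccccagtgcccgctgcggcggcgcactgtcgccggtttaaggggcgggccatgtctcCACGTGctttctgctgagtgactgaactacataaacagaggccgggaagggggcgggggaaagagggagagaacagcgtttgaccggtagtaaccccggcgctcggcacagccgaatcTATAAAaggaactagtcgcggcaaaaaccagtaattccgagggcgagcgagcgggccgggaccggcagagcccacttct
Capitals mark matches to 5 motifs searched on both strands, which were AGGTCA (part of the site bound by LXR and other nuclear receptors), CACGTG (the E-box), AGGAAGT (bound by PU.1), TATAAA (the core promoter box named after its first letters) and TGANTCA (bound by AP-1), none of which overlapped another in these windows. Of 32851 promoter windows in the table, 16.3% held AGGTCA, 7.15% CACGTG, 9.35% AGGAAGT, 13.6% TATAAA and 7.81% TGANTCA. The table held 8 windows for 6 of the genes, including 3 for *Apoe*, and no entry for *Lpl*, *Abcg1* or *Clu*. The *Abca1* window held CACGTG with its first base at -147 and TATAAA at -29. In the *Ch25h* window TATAAA lay at -151, and the printed *Apoe* window held none of these motifs. All are sequence matches whose use was not tested. AGGTCA and TGANTCA were in 0 of the 8 windows. Only exact matches were searched, so that a site differing by 1 base would be missed. These counts therefore do not show that LXR or AP-1 sites are lacking. *Ch25h* is a gene of 1 exon, and 159 of its 1387 bases overlap an exon of the noncoding gene *Gm26902* on the other strand. Counting was irrespective of strand, so that reads from these bases cannot be assigned to either gene. Whether they were counted or left out is not stated. Exons of the other 8 genes overlapped no annotated exon of another gene.

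Depth was 16.2 to 25.1 M counts in the CD11b+ libraries and 25.2 to 43.1 M in those of cortex, and every gene except *Ch25h* had at least 198 counts in every library (*Ch25h*, 13 to 751). Levels are given as counts per 1 M counts (CPM), scaled over all 31 libraries. The labelled cell type was checked with 14 microglia markers such as *Csf1r* and *C1qa*, whose summed level was 15645 to 32652 CPM in the CD11b+ libraries and 433 to 1046 CPM in cortex. The CD11b+ libraries also held other RNA. Summed astrocyte markers (14 genes, among them *Slc1a2*) reached 776 to 5771 CPM against 5429 to 7239 CPM in cortex, and summed oligodendrocyte markers (10 genes, led by *Mbp*) reached 7485 to 83369 CPM against 3498 to 5893 CPM. None of these markers was at 0 in every library of a group. The libraries of A-/wt/wt mouse 223, A+/wt/wt mouse 331 and A+/ki/ki mouse 335 had the lowest microglia sums of their groups (15645, 18065 and 20387 CPM) and the highest astrocyte sums (5771, 4792 and 3724 CPM). *Cst7*, a cysteine protease inhibitor raised in amyloid-responsive microglia, separated the transgene groups (10.5 to 32.6 CPM in female A-/wt/wt and 581 to 973 CPM in the 8 APP/PS1 libraries). *Plcg2* itself was at 141 to 263 CPM in CD11b+ libraries and 4.81 to 8.54 CPM in cortex, and its level does not check a genotype that changes 1 amino acid. Mouse number 236 is on both an A-/wt/wt CD11b+ and an A+/wt/wt cortex library, and both labels were used as given. In bulk libraries, fewer cells of a type and less RNA per cell cannot be told apart.

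*Apoe* was one of the most highly expressed genes in both sources. Per kilobase of exon, its level ranked 13 of 29455 detected genes in A+/wt/wt microglia and 18 of 31493 in A+/wt/wt cortex. On the same per-length scale, the A+/wt/wt microglia held 3579.6 ± 403 CPM per kb of *Apoe* (SD, n = 4), 101 ± 49.1 of *Clu*, 77.3 ± 20.3 of *Lrp1*, 27.2 ± 6.78 of *Lpl*, 24.1 ± 8.39 of *Abca1*, 18.4 ± 3.2 of *Lipa*, 14.8 ± 5.34 of *Ch25h*, 14.7 ± 2.86 of *Abcg1* and 11.3 ± 1.49 of *Soat1*. The order in A-/wt/wt microglia differed at the lower end, where *Lpl* (5.82 ± 2.18 CPM per kb, n = 7) and *Ch25h* (2.48 ± 1.02) stood below *Soat1* (7.84 ± 1.06). Across the 8 groups, the mean level of *Apoe* ran from A+/ki/ki and A+/wt/wt microglia, whose ranges overlapped, through female A-/wt/wt, male A-/ki/ki and male A-/wt/wt microglia, each overlapping its neighbour in this order, to the cortex groups.

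**Figure D1:**
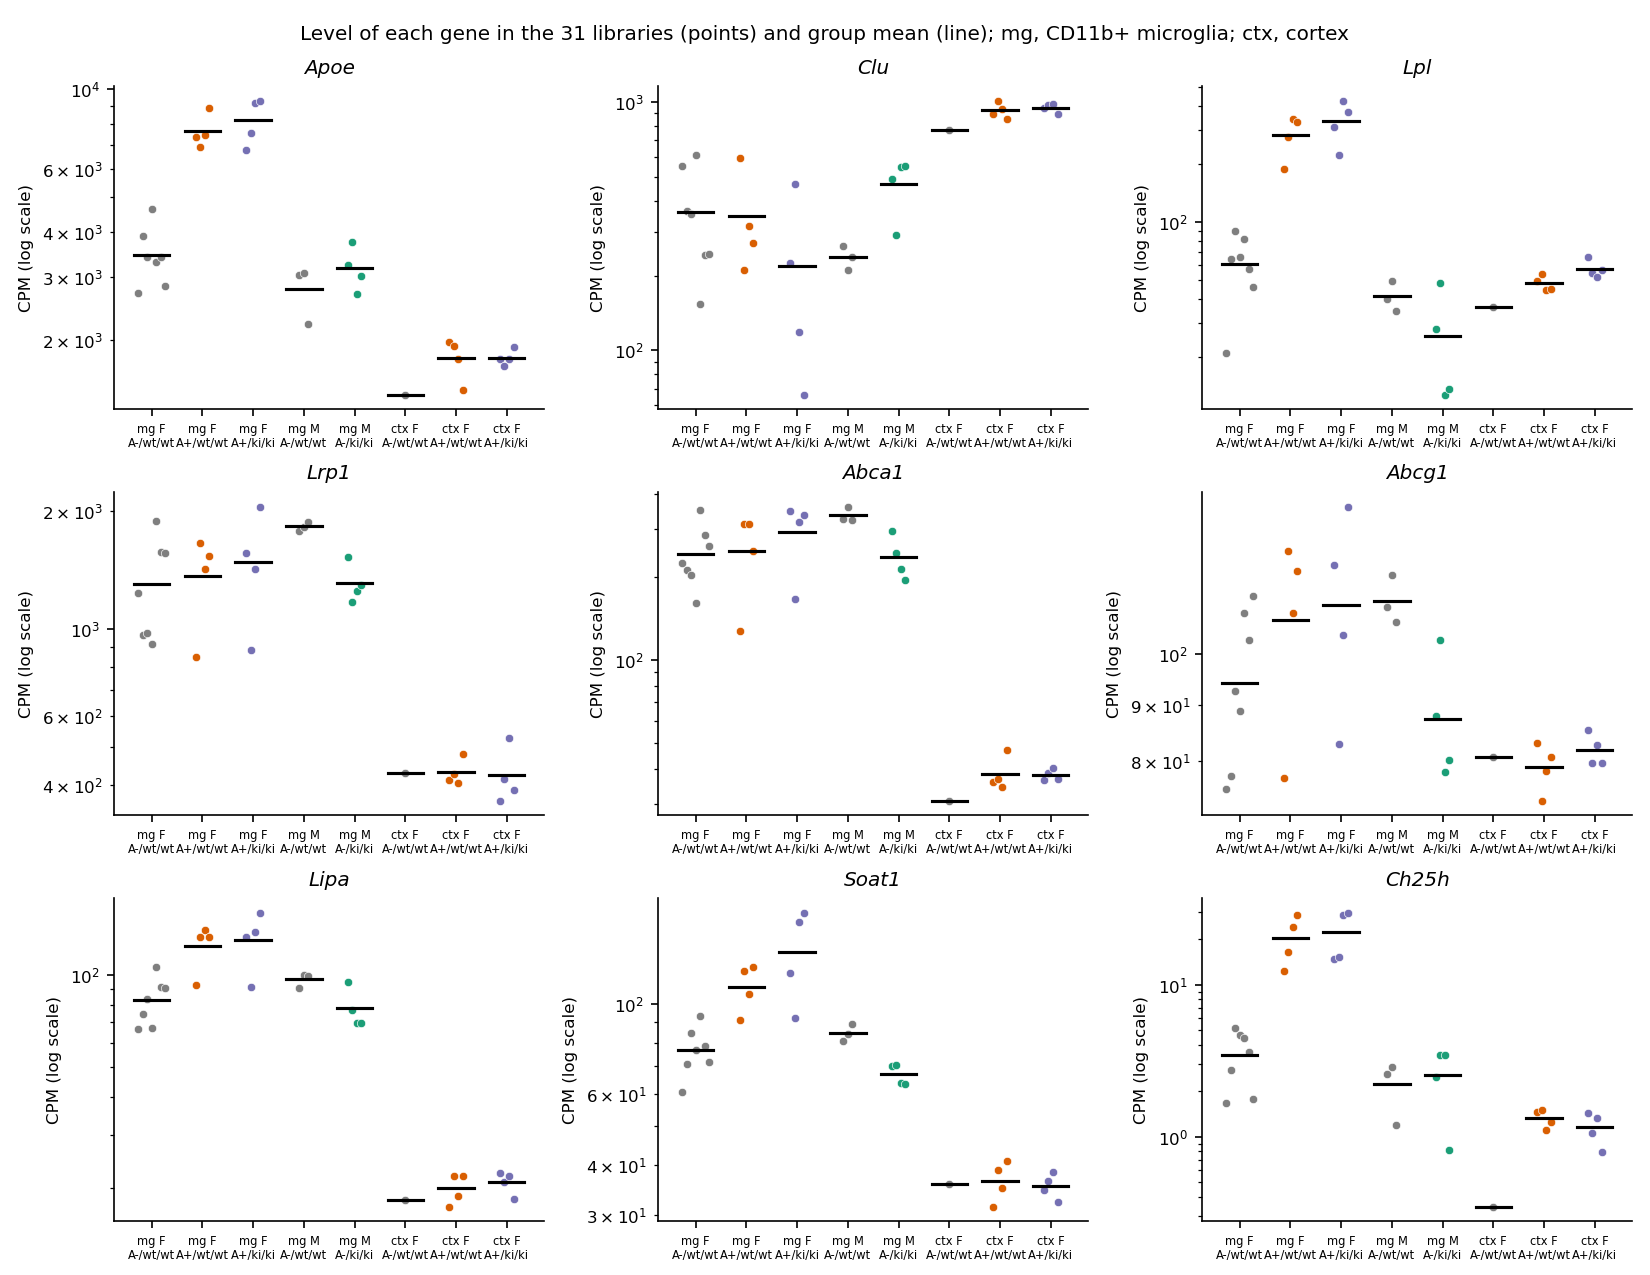
Level of each of the 9 genes (CPM, log scale) in every library (points) and the mean of each group (line), for 5 groups of CD11b+ microglia (mg) and 3 of cortex (ctx), F female and M male. *Apoe*, *Lpl* and *Ch25h* sit higher in all 8 APP/PS1 microglia libraries than in the 7 female A-/wt/wt libraries, and *Clu* is higher in every cortex library (771 to 1012 CPM) than in any microglia library (66.2 to 614 CPM).

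The first comparison asks how the APP/PS1 transgenes change these genes in microglia with wild-type *Plcg2*. *Ch25h*, *Lpl* and *Apoe* rose in A+/wt/wt microglia, by 5.88-fold, 4.64-fold and 2.21-fold over A-/wt/wt microglia. *Lipa* and *Soat1* were 1.51-fold and 1.44-fold higher without passing the test, and the exporters *Abca1* and *Abcg1*, the receptor *Lrp1* and *Clu* differed by 1.14-fold or less. In total, 3 of the 9 genes were called, all of them higher, while 1.01% of the 17355 genes tested were called higher and 1.29% in either direction. The log2 fold change (log2FC) was above 0 for 8 of the 9 genes, with a median of 0.52 against -0.03 over all genes. Because the genes were chosen with earlier results of these data known, these shares and medians describe them and are no test of the set. The names of the count columns of CD11b+ libraries end in a tag that was taken as a batch tag, although what it marks is not stated. It differs between A-/wt/wt and A+ females, so that batch and transgenes cannot be told apart in this comparison. The fold changes come from fits of the compared libraries alone and can differ slightly from the ratio of the mean CPM.

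*Apoe*, the main apolipoprotein of the brain, was at 7373, 6897, 7449.9 and 8892 CPM in the A+/wt/wt libraries and ranged from 2693 to 4638 CPM, with a median of 3407 CPM, in the 7 A-/wt/wt libraries. The ranges of the groups did not overlap, as for 2.02% of all genes with higher levels in A+/wt/wt. Its log2FC was 1.14 (SE 0.19, 95% interval 0.73 to 1.56) with an adjusted p of 0.0111 in edgeR's quasi-likelihood test. The call was lost without A+/wt/wt mouse 380, the highest library (log2FC 1.06, adjusted p = 0.0656), and held under the other 17 settings tested, with adjusted p from 9.72e-10 to 0.0656 over all 18. Per 1000 CPM of the summed microglia markers, *Apoe* was at 247 to 408 CPM in A+/wt/wt and 119 to 198 CPM in A-/wt/wt libraries, again without overlap.

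*Lpl*, which hydrolyses triglycerides of lipoproteins, was at 188, 275, 343 and 332 CPM in A+/wt/wt and ranged from 21.1 to 89.7 CPM (median 64.6 CPM) in A-/wt/wt microglia. The lowest A-/wt/wt value belonged to mouse 223 and the lowest A+/wt/wt value to mouse 331, the libraries with the lowest microglia marker sums. The log2FC was 2.21 (SE 0.31, interval 1.54 to 2.89, adjusted p = 0.00337, edgeR). Leaving out both mice, a setting chosen after their marker levels were seen, gave 2.24, and *Lpl* was called under each of the 18 settings (adjusted p 2.25e-09 to 0.019).

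*Ch25h*, the cholesterol 25-hydroxylase, was at 12.4, 16.5, 24.1 and 28.8 CPM in A+/wt/wt and ranged from 1.66 to 5.16 CPM (median 3.61 CPM) in A-/wt/wt microglia. It had the largest fold change of the 9 genes, at a level that was still the lowest in CPM, with 255 to 554 counts per A+/wt/wt library. The log2FC was 2.56 (SE 0.33, interval 1.84 to 3.28, adjusted p = 0.00193, edgeR), and the call held under each of the 18 settings (adjusted p 9.37e-11 to 0.013).

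The lysosomal lipase *Lipa* was at 92.7, 133, 140.4 and 133 CPM in A+/wt/wt and 66.6 to 106 CPM (median 83.4 CPM) in A-/wt/wt microglia. The library of mouse 331 was the only A+/wt/wt library inside the A-/wt/wt range. The log2FC was 0.59 (SE 0.17, interval 0.23 to 0.95, adjusted p = 0.138, edgeR), and without mouse 331 it was 0.70, at the threshold (adjusted p = 0.05). *Soat1*, the sterol acyltransferase, showed the same kind of pattern, with 91.3, 120.3, 106 and 123 CPM in A+/wt/wt against 60.7 to 93.1 CPM (median 76.8 CPM) in A-/wt/wt. Its log2FC was 0.52 (SE 0.14, interval 0.21 to 0.83, adjusted p = 0.125). DESeq2's Wald test called both genes (adjusted p = 0.0206 and 0.0106), as did edgeR without mice 223 and 331 (0.036 and 0.029). Over the 18 settings, adjusted p ranged from 0.0206 to 0.405 for *Lipa* and from 0.0106 to 0.406 for *Soat1*.

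The other 4 genes gave no call and had wide intervals. *Abca1* was at 127, 311, 311 and 249.9 CPM in A+/wt/wt and 161 to 352 CPM in A-/wt/wt microglia (log2FC 0.05, interval -0.51 to 0.61), and *Abcg1* at 77.3, 124, 109 and 119 CPM against 75.5 to 113 CPM (0.19, -0.17 to 0.55). The endocytic receptor *Lrp1* was at 849.6, 1659, 1424 and 1542 CPM against 918 to 1888 CPM (0.08, -0.47 to 0.62). *Clu*, which encodes the astrocyte-rich apolipoprotein clusterin, was at 593, 211, 318 and 270.3 CPM against 154 to 614 CPM (-0.05, -0.83 to 0.73). Their adjusted p ran from 0.845 to 0.998, and the A+/wt/wt library of mouse 331 was the lowest for the first 3 genes and the highest for *Clu*.

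The second comparison sets A+/ki/ki microglia against the same 7 A-/wt/wt libraries, so that it shares its controls with the first and is shown beside it. Transgenes, *Plcg2* genotype and batch tag change together in it and cannot be told apart. The choice of the genes limits its shares as in the first. The same 3 genes rose and *Soat1* was called as well, which made 4 of 9 genes called, all higher, against 1.35% of 17446 genes called higher and 1.64% in either direction. *Apoe* was at 6780.5, 7547, 9154 and 9294 CPM in A+/ki/ki microglia, every value above the A-/wt/wt range, as for 2.5% of all genes. Its log2FC was 1.25 (SE 0.21, interval 0.80 to 1.70, adjusted p = 0.0136, edgeR), and the call was lost without A+/ki/ki mouse 394 (1.20, adjusted p = 0.0614) or mouse 405 (1.18, adjusted p = 0.0695), with adjusted p from 1.18e-10 to 0.0695 over 18 settings. *Lpl* was at 309.7, 224, 426 and 373 CPM (log2FC 2.45, SE 0.32, adjusted p = 0.00287) and *Ch25h* at 14.7, 15.3, 28.9 and 29.8 CPM (2.68, SE 0.34, adjusted p = 0.00287). Both kept their call under all 18 settings, with adjusted p up to 0.0139 for each.

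*Soat1* was at 119, 92.2, 159 and 168 CPM in A+/ki/ki microglia, of which only mouse 335 lay inside the A-/wt/wt range. Its log2FC was 0.82 (SE 0.17, interval 0.44 to 1.19, adjusted p = 0.0374, edgeR). This call depended on single libraries. It was lost without any of A-/wt/wt mice 224, 225, 236, 243 and 245 (adjusted p 0.0616 to 0.0834) or A+/ki/ki mice 244, 394 and 405 (0.079 to 0.173), and 10 of 18 settings called it. *Lipa*, at 133, 91.4, 139 and 160.3 CPM, was not called (log2FC 0.67, SE 0.17, adjusted p = 0.0861), and it was called without mouse 335 (0.80, adjusted p = 0.0121). In this comparison the microglia markers were higher for 13 of 14 genes (median log2FC 0.23, 0 called) and the astrocyte markers lower for 13 of 14 (median -0.74, 0 called). Per 1000 CPM of microglia markers, the log2 ratio of the group means was 1.01 for *Apoe*, 0.55 for *Soat1* and 0.40 for *Lipa*. On this scale, on which the summed markers themselves differed by a log2 ratio of 0.24, none of the 3 overlapped between groups, whereas in CPM *Soat1* and *Lipa* did. *Abca1*, *Abcg1* and *Lrp1* (log2FC 0.20 to 0.28) and *Clu* (-0.71, interval -1.80 to 0.38) were not called.

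**Figure D2:**
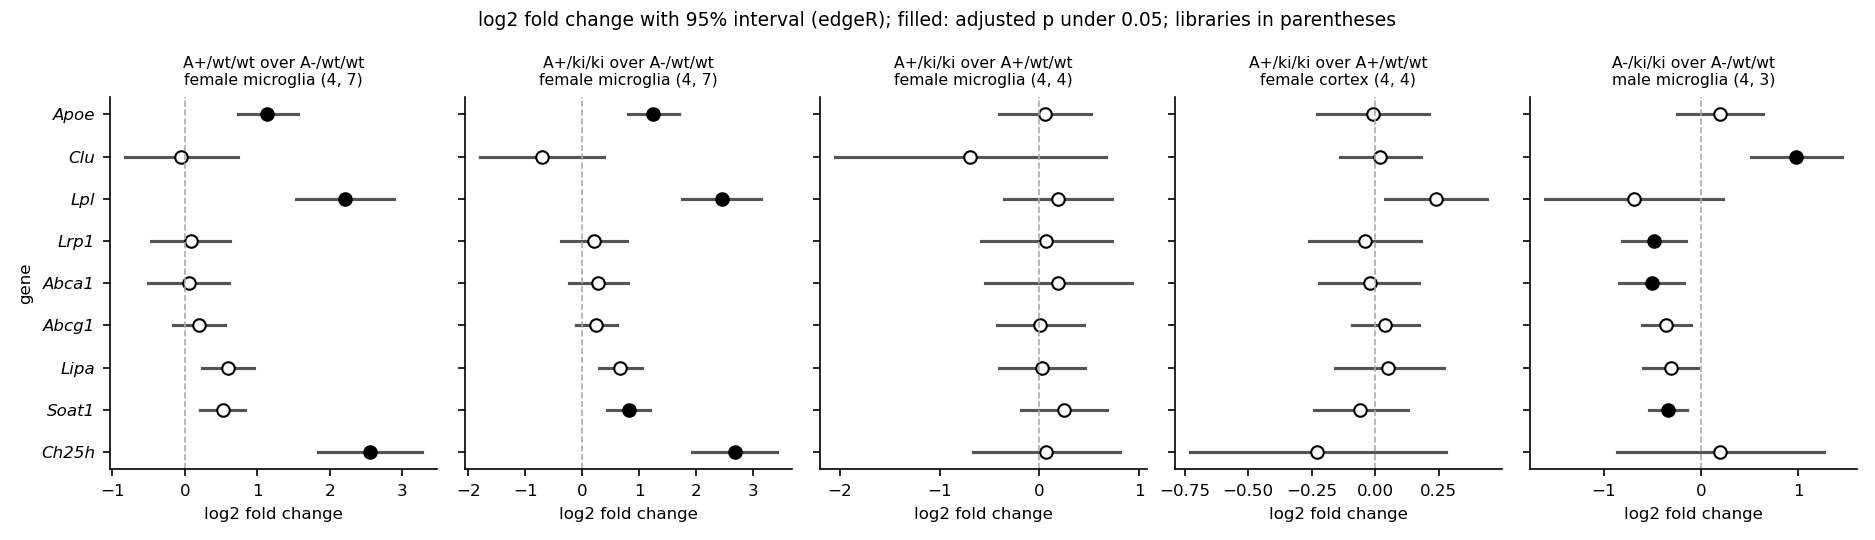
The log2 fold change of the 9 genes (x axis, a separate scale in each panel) with its 95% interval in 5 comparisons within a tissue and sex, with the number of libraries of each group in parentheses. Filled points have an adjusted p under 0.05 and are *Apoe*, *Lpl* and *Ch25h* in both comparisons with A-/wt/wt females, *Soat1* in the second of these and in males, and *Clu*, *Lrp1* and *Abca1* in males.

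The effect of P522R on an amyloid background was measured directly between A+/ki/ki and A+/wt/wt microglia, whose libraries carry the same batch tag. None of the 9 genes was called, and 0 of 17039 genes were (575 genes, 3.37%, had an unadjusted p under 0.05, and DESeq2 called 7 genes). The mean of *Apoe* was 8194 ± 1231 CPM in A+/ki/ki and 7653 ± 862 CPM in A+/wt/wt (SD, n = 4 each), a log2FC of 0.06 with an interval of -0.40 to 0.52. That of *Lpl* was 333 ± 86.7 and 285 ± 71.1 CPM (log2FC 0.19, -0.35 to 0.73), and that of *Ch25h* 22.2 ± 8.31 and 20.5 ± 7.4 CPM (0.07, -0.66 to 0.81). *Soat1* had the largest positive difference (0.25, -0.18 to 0.68) and *Clu* the only negative one (-0.69, -2.05 to 0.67). The ranges of the groups overlapped for all 9 genes, while 2.25% of all genes showed no overlap, and adjusted p ran from 0.853 to 0.988 (edgeR). The interval was widest for *Clu*. The neuron, astrocyte, oligodendrocyte, endothelial and choroid plexus markers were lower in A+/ki/ki for every gene of their lists (median log2FC -0.84, -0.69, -0.28, -0.46 and -1.09, 0 called). Microglia markers were higher for 14 of 14 genes (median 0.21) and neutrophil and monocyte markers for 9 of 9 (median 2.47), again with 0 called by edgeR. The A+/ki/ki libraries did not move as 1 group. Summed neuron markers were at 196 (mouse 405) to 2385 CPM (mouse 335), against 932 to 1802 CPM in A+/wt/wt. Neutrophil and monocyte markers were at 52 (mouse 394) to 1683 CPM (mouse 335), against 70.3 to 148 CPM.

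*Clu* followed the astrocyte and neuron markers. In the 15 female CD11b+ libraries, its deviations from the group means on the log2 scale had a Pearson r of 0.97 with those of the summed astrocyte markers, of 0.89 with the neuron markers and of -0.79 with the microglia markers. The libraries share their preparation and composition, and these values describe them without a test. The A+/ki/ki libraries of mice 394 and 405 had the lowest astrocyte sums (989 and 776 CPM) and the lowest *Clu* (119 and 66.2 CPM), and A+/ki/ki mouse 335 had 3724 and 467 CPM. *Lipa* (r = -0.90), *Soat1* (-0.87), *Abcg1* (-0.80), *Lrp1* (-0.79), *Abca1* (-0.73), *Lpl* (-0.61) and *Ch25h* (-0.47) deviated the other way from the astrocyte markers. With the microglia markers, these genes had an r from 0.57 (*Lrp1*) to 0.89 (*Soat1*). *Apoe* followed both lists less closely (-0.20 with astrocyte and 0.40 with microglia markers).

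**Figure D3:**
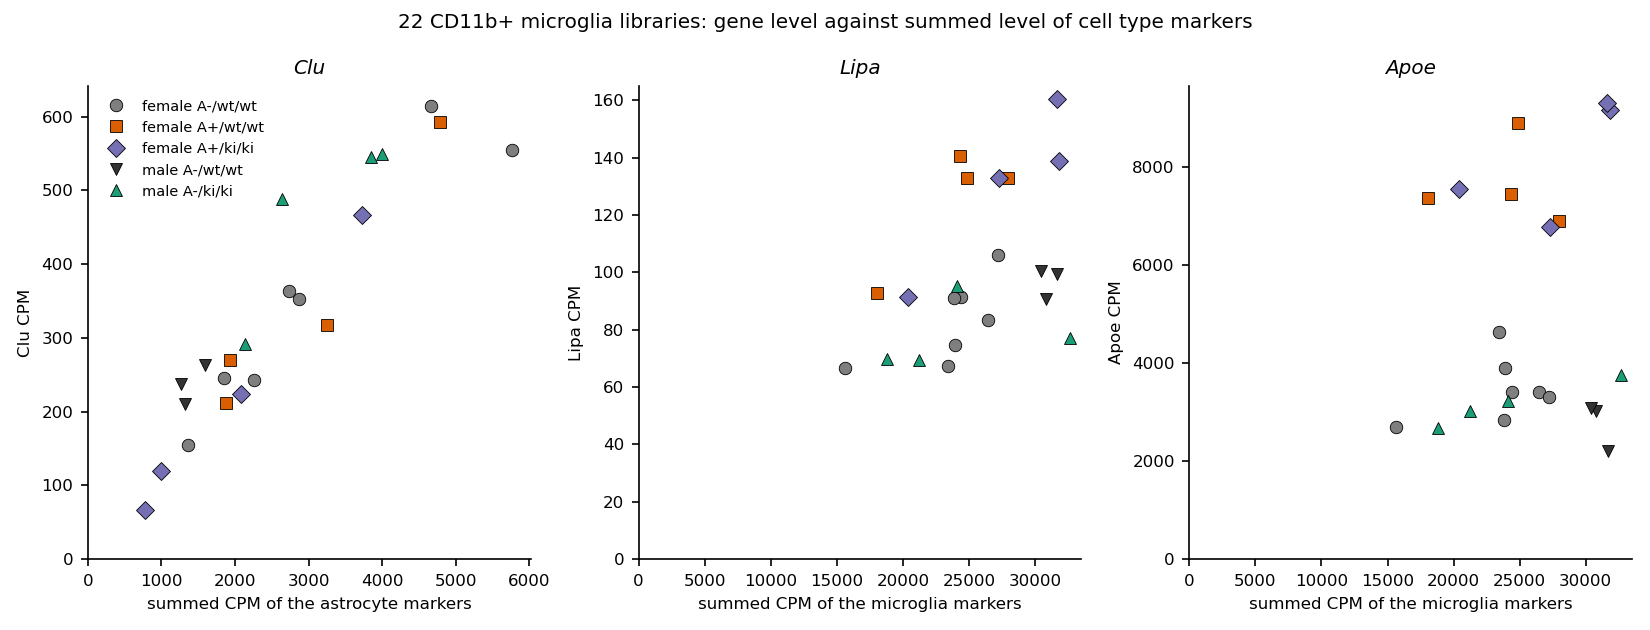
Level (CPM) of *Clu* against the summed CPM of 14 astrocyte markers, and of *Lipa* and *Apoe* against the summed CPM of 14 microglia markers, in 22 CD11b+ microglia libraries of 5 groups (symbols). *Clu* is higher in libraries with a higher astrocyte sum, whereas *Apoe* separates the APP/PS1 libraries (6780.5 to 9294 CPM) from the others (2211 to 4638 CPM) over the whole range of the microglia sum.

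In temporo-occipital cortex, the same contrast of A+/ki/ki with A+/wt/wt mice gave narrower intervals and again no call. In total, 0 of 18640 genes were called by edgeR (514 genes, 2.76%, had an unadjusted p under 0.05, and DESeq2 called 11 genes). *Lpl* was the only one of the 9 with an unadjusted p under 0.05. It was at 66.3, 54.8, 51.9 and 56.9 CPM in A+/ki/ki and 49.6, 53.9, 44.4 and 45.2 CPM in A+/wt/wt cortex, so that the ranges overlapped by 1 library on each side, and its log2FC of 0.24 (SE 0.09, interval 0.04 to 0.44) had an adjusted p of 1. *Apoe* was at 1784 ± 92.4 and 1779 ± 238 CPM (SD, n = 4 each, log2FC -0.01, interval -0.23 to 0.21) and *Clu* at 948 ± 38.4 and 926 ± 67.7 CPM (0.02, -0.14 to 0.18). *Abca1*, *Abcg1*, *Lrp1*, *Lipa* and *Soat1* had a log2FC from -0.06 to 0.05, with interval bounds from -0.26 to 0.27, and *Ch25h*, with 33 to 62 counts per library, one of -0.23 (-0.73 to 0.28).

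The single A-/wt/wt cortex library allows no test of the transgenes in tissue, and its values are given beside the 8 APP/PS1 cortex libraries. It lay below all 8 for *Apoe* (1405 CPM against 1447 to 1976 CPM), *Lpl* (36.6 against 44.4 to 66.3 CPM), *Abca1* (30.7 against 34.5 to 47 CPM), *Clu* (771 against 853 to 1012 CPM) and *Ch25h* (0.345 against 0.792 to 1.49 CPM, with 16 counts). For *Abcg1*, *Lrp1*, *Lipa* and *Soat1* it lay within their range. These were 5 of 9 genes, and of 18810 genes in cortex 13.8% lay below all 8 in this library, so that the count describes 1 mouse. The same library had the lowest microglia sum of cortex (433 CPM against 819 to 1046 CPM) and the lowest astrocyte sum (5429 CPM against 5945 to 7239 CPM), and the part of these in its levels was not tested.

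In male mice without amyloid, A-/ki/ki was compared with A-/wt/wt microglia. *Clu* rose by 1.97-fold, and *Abca1*, *Lrp1* and *Soat1* fell to 0.702, 0.716 and 0.789 of their A-/wt/wt level, while *Apoe*, *Lpl*, *Abcg1*, *Lipa* and *Ch25h* gave no call. Calls were common in this comparison, at 16.4% of 16373 genes (11.1% higher and 5.26% lower), so that 1 higher and 3 lower of 9 genes are to be read against these shares. Markers of other cells moved with the genotype. All 14 neuron and all 14 astrocyte markers were called higher (median log2FC 2.11 and 1.14), 6 of 10 oligodendrocyte markers and 4 of 12 endothelial and mural markers were called higher, and the 14 microglia markers all had a negative log2FC (median -0.36, 1 called). The summed astrocyte markers were at 1261 to 1588 CPM in the 3 A-/wt/wt and 2141 to 3995 CPM in the 4 A-/ki/ki libraries, and the microglia markers at 30415 to 31697 CPM and 18804 to 32652 CPM. The share of counts from mitochondrial genes was 3.97 to 5.02% and 7.4 to 12.8%. In female CD11b+ libraries this share was 5.1 to 24.5% in A-/wt/wt, 9 to 16.7% in A+/wt/wt and 3.45 to 19.4% in A+/ki/ki. The part of the cell type markers and of this share in the calls was not tested.

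*Clu* was at 488, 291, 545 and 549.8 CPM in A-/ki/ki and 263, 210.4 and 237 CPM in A-/wt/wt males (log2FC 0.98, SE 0.21, adjusted p = 0.0154, edgeR). All A-/ki/ki values were above the A-/wt/wt range, and the lowest, of mouse 104, came from the library with the lowest astrocyte sum of its group. The call was lost without A-/wt/wt mouse 101 (0.94, adjusted p = 0.0548) or mouse 102 (1.00, adjusted p = 0.0606), and without A-/ki/ki mice 136 and 139 together, the libraries richest in astrocyte markers, a setting added after these were seen (0.73, adjusted p = 0.0867). Adjusted p over 13 settings ran from 2.47e-05 to 0.0867.

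*Abca1* was at 294, 244, 214 and 195 CPM in A-/ki/ki and 326, 361 and 324 CPM in A-/wt/wt males (log2FC -0.51, SE 0.15, adjusted p = 0.043, edgeR). *Lrp1* was at 1527, 1175, 1251 and 1299 CPM against 1785, 1829 and 1883 CPM (-0.48, SE 0.14, adjusted p = 0.0489), and *Soat1* at 70.1, 70.6, 63.7 and 63.2 CPM against 81, 84.2 and 89 CPM (-0.34, SE 0.09, adjusted p = 0.0328). None of the 3 overlapped between groups, as for 30.8% of all genes in this comparison. The calls of *Abca1* and *Lrp1* were each lost without any 1 of A-/wt/wt mice 94, 101 and 102 or A-/ki/ki mice 136 and 139 (adjusted p 0.098 to 0.236), and that of *Soat1* without these or A-/ki/ki mouse 84 (0.0594 to 0.229). Over 13 settings, *Abca1* was called in 7, *Lrp1* in 4 and *Soat1* in 5.

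The summed microglia markers themselves differed between the male groups by a log2 ratio of -0.36, so that dividing by them raises the ratio of every gene by about the same amount. Per 1000 CPM of these markers, *Abca1* was at 7.48 to 12.2 CPM in A-/ki/ki and 10.2 to 11.9 CPM in A-/wt/wt, *Lrp1* at 36 to 66.5 CPM and 58 to 60.1 CPM, and *Soat1* at 2.16 to 3.39 CPM and 2.63 to 2.81 CPM, so that all 3 overlapped. The log2 ratio of group means was -0.11, -0.06 and 0.06. *Apoe*, moved by the same shift, was at 115 to 143 CPM in A-/ki/ki and 69.7 to 101 CPM in A-/wt/wt (log2 ratio 0.57), and its CPM of 3226, 3745, 2681 and 3013 overlapped those of A-/wt/wt males at 3025, 3074 and 2211 (log2FC 0.19, SE 0.20, adjusted p = 0.533). This ratio was added after the marker levels were seen and carries no test. A-/ki/ki mouse 104, with the highest microglia sum of all libraries (32652 CPM), had the lowest ratio of its group for *Abca1*, *Lrp1*, *Soat1*, *Apoe* and *Clu*. The overlap of *Lrp1* and *Soat1* on this scale came from mouse 104 alone. Mice 84, 136 and 139 lay above all A-/wt/wt libraries, at 61.2 to 66.5 CPM for *Lrp1* and 2.91 to 3.39 CPM for *Soat1*.

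**Figure D4:**
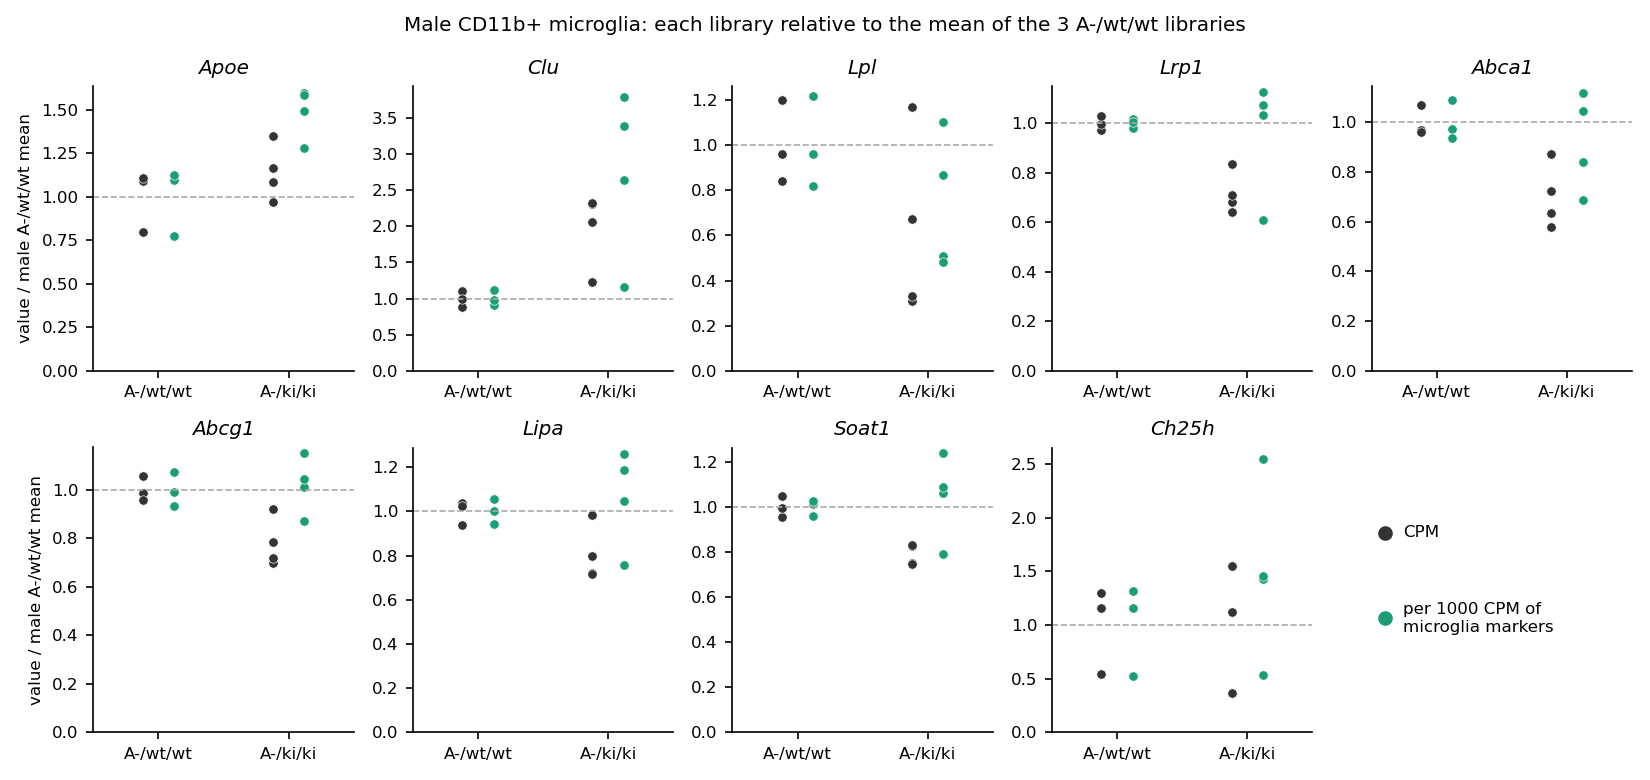
The 9 genes in male microglia libraries, as a multiple of the mean of the 3 A-/wt/wt libraries, from CPM (black) and from CPM per 1000 CPM of summed microglia markers (green). In CPM, *Abca1*, *Lrp1* and *Soat1* sit below the A-/wt/wt points in all 4 A-/ki/ki libraries. On the marker scale, which raises the ratio of all genes, the groups overlap for these 3, for *Lrp1* and *Soat1* through mouse 104 alone.

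*Lpl* had the widest spread among A-/ki/ki males, at 27.9, 48.4, 12.8 and 13.7 CPM against 39.9, 49.7 and 34.8 CPM in A-/wt/wt (log2FC -0.69, SE 0.41, adjusted p = 0.274). The value of mouse 104 lay inside the A-/wt/wt range and the other 3 below it, and without this mouse *Lpl* was called lower (-1.18, adjusted p = 0.0127), as was *Abcg1* (-0.45, adjusted p = 0.00443). *Lipa* (-0.31, adjusted p = 0.114) was called without A-/ki/ki mouse 84 (-0.40, adjusted p = 0.0354). Adjusted p over 13 settings ran from 0.0127 to 0.821 for *Lpl*, from 0.00443 to 0.313 for *Abcg1* and from 0.0354 to 0.455 for *Lipa*. *Ch25h* was low in all males, at 0.812 to 3.44 CPM in A-/ki/ki and 1.2 to 2.88 CPM in A-/wt/wt.

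The male P522R effect was also set against that in APP/PS1 females in 1 fit of the 15 libraries, a contrast in which sex, amyloid and batch tag change together and cannot be told apart. None of 17619 genes was called by edgeR, although 26.5% had an unadjusted p under 0.05 and DESeq2 called 1185 genes. *Clu* had the largest difference, 1.69 on the log2 scale (male minus female, SE 0.71, adjusted p = 0.165), followed by *Lpl* (-0.83, adjusted p = 0.304), *Abca1* (-0.67, adjusted p = 0.268) and *Soat1* (-0.56, SE 0.22, adjusted p = 0.154). Without A+/ki/ki mouse 335, edgeR called *Clu* (2.31, adjusted p = 0.00822), *Soat1* (-0.78, adjusted p = 0.00612), *Abca1* (-0.94, adjusted p = 0.0455) and *Lrp1* (-0.79, adjusted p = 0.0479) together with 6199 genes in all. Over 19 settings, adjusted p ran up to 0.317, 0.282, 0.417 and 0.538 for these genes. The neuron and astrocyte markers moved the same way as *Clu* (14 of 14 positive in each, median 2.98 and 1.91). The difference for *Apoe* was 0.16 (interval -0.43 to 0.76).

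CD11b+ microglia, isolated from whole brain, were compared with temporo-occipital cortex, taken from other APP/PS1 mice of the same genotype. In A+/wt/wt mice 8 of the 9 genes were called higher in microglia and *Clu* lower, in a comparison where 37.7% of 18541 genes were called higher and 40.2% lower. The difference was largest for *Ch25h* (log2FC 4.01, SE 0.28), followed by *Abca1* (2.77, SE 0.26), *Lipa* (2.71, SE 0.15), *Lpl* (2.63, SE 0.19), *Apoe* (2.17, SE 0.16), *Lrp1* (1.74, SE 0.20), *Soat1* (1.66, SE 0.13) and *Abcg1* (0.51, SE 0.14), with adjusted p from 4.52e-08 to 0.00732 (edgeR). The 14 microglia markers had a median log2FC of 4.73, above that of each of the 9 genes. *Clu* was at 926 ± 67.7 CPM in cortex and 348 ± 169 CPM in microglia (SD, n = 4 each, log2FC -1.35, SE 0.27, adjusted p = 0.000801), between the medians of the astrocyte (-0.95) and neuron markers (-4.22).

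*Apoe* was at 1779 ± 238 CPM in A+/wt/wt cortex, of which all 4 libraries (1447 to 1976 CPM) lay below every microglia library (lowest 2211 CPM, in a male). *Abcg1* had the smallest difference, at 73.7 to 83.2 CPM in cortex and 77.3 to 124 CPM in microglia, with mouse 331 overlapping the cortex. In A+/ki/ki mice the same 8 genes were higher and *Clu* was lower (-2.06, SE 0.54, adjusted p = 0.00791), where 36.8% of 18954 genes were called higher and 39.8% lower. The log2FC was 4.31 for *Ch25h*, 2.98 for *Abca1*, 2.24 for *Apoe* and 0.48 for *Abcg1*. The call of *Abcg1* in A+/ki/ki was lost without a filter on low counts (0.38, adjusted p = 0.0713, with 0.000787 to 0.0713 over 12 settings). RNA was extracted from cortex with TRI Reagent and from CD11b+ cells with a column kit. Tissue, brain region, mice, extraction and any batch differ together here and cannot be told apart.

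**Figure D5:**
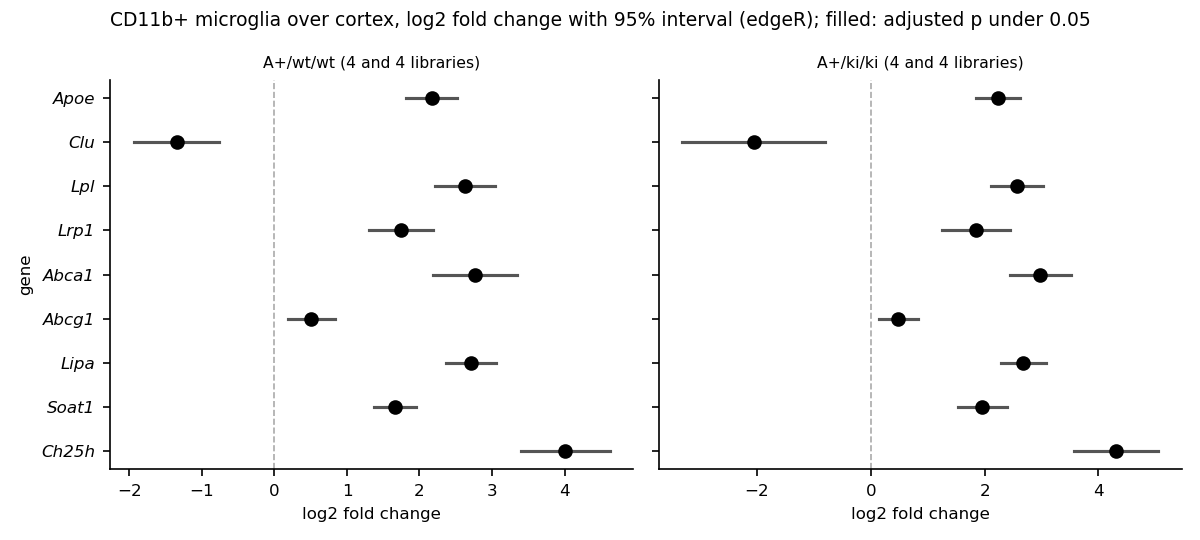
The log2 fold change (x axis) of CD11b+ microglia over cortex with its 95% interval for the 9 genes in A+/wt/wt and A+/ki/ki mice (4 and 4 libraries each), filled where the adjusted p was under 0.05. *Ch25h* is farthest to the right (4.01 and 4.31), *Abcg1* nearest to 0 on the right, and *Clu* the only gene to the left.

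A further 92 genes of the same pathway, also chosen with earlier results of these data known, were grouped by role. In A+/wt/wt over A-/wt/wt microglia, 4 of the 86 tested were called higher and 1 lower, against 1.01% of all genes called higher and 1.29% in either direction, and the median log2FC was 0.00. *Nceh1*, a neutral cholesterol ester hydrolase, rose from 23.3 ± 2.5 to 69.7 ± 16.3 CPM (log2FC 1.59, SE 0.15, adjusted p = 0.000179) and the receptor chaperone *Lrpap1* from 92.7 ± 4.41 to 160.3 ± 19.5 CPM (0.79, adjusted p = 0.0024). The scavenger receptor gene *Cd36* fell from 13.1 ± 1.48 to 7.69 ± 1.31 CPM (-0.78, adjusted p = 0.0302). Another gene called higher was *Apoc4*, of the same apolipoprotein gene cluster as *Apoe*, at a mean of 0.403 CPM (adjusted p = 0.0141, edgeR). It was named after its values were seen. Of the 20 sterol exporters and LXR genes and the 18 genes of lysosomal and intracellular cholesterol transfer, 0 were called by edgeR in this comparison.

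In A+/ki/ki over the same A-/wt/wt libraries, 6 of 86 pathway genes were called higher and 1 lower, against 1.35% of all genes called higher and 1.64% in either direction. *Nceh1* (log2FC 1.64), *Lrpap1* (0.72), *Apoc4* (3.31 at a mean of 0.277 CPM) and *Cd36* (-0.93) were called as in A+/wt/wt. *Abcd2*, a peroxisomal transporter of fatty acids, rose from 80.4 ± 9.51 to 158 ± 44 CPM (0.98, adjusted p = 0.0165) and *Lamp2*, a lysosomal membrane protein gene, from 329.6 ± 43.3 to 566 ± 133 CPM (0.78, adjusted p = 0.0453). Markers of border macrophages, which express scavenger receptors, were lower in both comparisons (4 and 2 of 8 called lower, median log2FC -1.05 and -0.85), and their part in the fall of *Cd36* was not tested. Between A+/ki/ki and A+/wt/wt mice, 0 of 86 pathway genes in microglia and 0 of 82 in cortex were called.

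In A-/ki/ki over A-/wt/wt males, 6 of 84 pathway genes were called higher and 5 lower, where 11.1% and 5.26% of all genes were, so that the list did not stand above the background. Of the 6 higher genes, 4 had a mean above 5 CPM. They were *Hsd11b1* (log2FC 1.48), the cholesterol esterifying enzyme gene *Lcat* (1.07), *Cyp46a1*, which makes 24-hydroxycholesterol in neurons (1.00), and *Apod* (0.78). Of these, *Cyp46a1* was far lower in microglia than in cortex of A+/wt/wt mice (12.8 ± 4.57 and 245 ± 6.58 CPM). The lower genes included *Abca9* (-0.60), *Gramd1a* (-0.47), *Cyp27a1* (-0.47) and *Stab1* (-0.45). *Abca9* and *Stab1* were among the pathway genes most enriched in microglia over cortex (log2FC 4.87 and 5.02), beside *Msr1* (4.99), *Apobr* (4.45) and *Trem2* (4.37). The genes lowest in microglia were *Abcg4* (-4.20), *Cyp46a1* (-4.19), *Dgat2* (-3.83), *Vldlr* (-2.80) and *Cyp7b1* (-2.03). In all, 50 of 87 pathway genes were called higher and 26 lower in A+/wt/wt microglia over cortex, where 37.7% and 40.2% of all genes were.

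The genes whose deviations from the group means were most like those of *Lpl* over the 15 female microglia libraries, among 11454 genes, were *Sgce* (Pearson r = 0.96), *Spi1*, *Clec7a*, *Cd300c2* and *Dhrs3* (0.94 each). Those most like *Apoe* were *Pgls* (0.91), *Cops4* (0.90), *Adrm1* (0.88), *Vps26c* (0.87) and *Pih1d1* (0.87), and those most like *Clu* were *Cystm1* (0.99), *Nnat*, *Cmtm5*, *Scg3* and *Sybu* (0.98 each). Among the 9 genes, *Clu* and *Lipa* deviated in opposite directions (r = -0.93), *Abca1* and *Lrp1* together (0.92), and *Lpl* and *Ch25h* together (0.84). These values were taken from the same libraries and share their depth and cell composition.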

How the data were processed

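RNA was sequenced from CD11b+ microglia of whole brain (female and male tables) and from temporo-occipital cortex. The authors trimmed reads (Trimmomatic 0.39), aligned them to GRCm38 (STAR 2.7.9a) and counted them per gene (featureCounts 2.12.0), per the labels. The deposited raw counts per gene were used for the results, and the deposited log2-scale normalized values of the authors (variance-stabilized) for 1 alternative. Genes reaching 10 counts in 3 or more of the fitted libraries were tested with edgeR 4.0.16 (R 4.3.3), using TMM scaling, the quasi-likelihood test and Benjamini-Hochberg adjustment at 0.05, in fits of the compared libraries. The fits were tested on simulated data. Intervals of 95% use edgeR's degrees of freedom. CPM per kb used exon lengths of a GRCm38 annotation. DESeq2 1.42.0, limma 3.58.1, other filters and scalings, and leaving out libraries were alternatives. Mouse numbers name replicates, and nothing in the labels beyond them describes how libraries were replicated, so that p-values measure the spread between these samples. Among the 9 genes, counting error is not the limit at these depths, except where *Ch25h* had few counts, as in cortex. It also weighs on *Apoc4*, whose mean was far below 5 CPM. Pathway genes were named when called with a mean of at least 5 CPM, up to 5 per direction by log2FC, and the 5 genes most like *Apoe*, *Lpl* and *Clu* by Pearson r of log2 CPM deviations from group means. The 9 genes, the lists and the markers were chosen with earlier results of these data known. Some genes that these rules would name are not reported here.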

Additional observations from a re-analysis of the deposited data

Results flagged for a closer look

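In 2 of the 54 gene and group combinations with 4 to 10 libraries, 1 library stood far from the rest of its group, where chance alone marks about 1 in 20. The count does not exceed that rate. *Abca1* was at 167 CPM in A+/ki/ki microglia of mouse 335, and the nearest and highest libraries of the group were at 317 and 348 CPM. *Lipa* was at 92.7 CPM in A+/wt/wt microglia of mouse 331, and the nearest and highest were at 133 and 140.4 CPM. Both libraries had the lowest microglia and the highest astrocyte marker sums of their groups. The part of these markers in the values was not tested.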

How the results depend on the processing

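No paired analysis was possible because the compared groups share fewer than 2 mouse numbers. The number of genes called moved with the tool and with single libraries. In A+/wt/wt over A-/wt/wt microglia it was 224, against 636 with DESeq2, 91 to 497 with 1 library left out and 479 without mice 223 and 331. In A+/ki/ki over A-/wt/wt it was 286, against 956 with DESeq2, 510 with all groups in the fit, 57 to 1097 with 1 library left out and 1264 without mice 223 and 335. For P522R in APP/PS1 mice it was 0 in microglia and in cortex, against 7 and 11 with DESeq2, 40 in cortex without a filter, and 0 to 1 and 0 to 2 with 1 library left out. In males it was 2685, with 894 to 5439 with 1 library left out and 922 without mice 136 and 139, and fitting all groups of the male table is the same fit. For the difference of the P522R effects it was 0, against 1185 with DESeq2 and 0 to 6199 with 1 library left out. The cause was not tested. Microglia over cortex gave 13375 to 16291 calls in all settings.

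With refits, changes of sign were seen for genes that were not called. The limma fit gave 0 for *Abca1* in A+/wt/wt over A-/wt/wt microglia and for *Apoe* in cortex. *Soat1* in males was 0.06 per 1000 CPM of microglia markers against a log2FC of -0.34, on a scale that moves all genes alike (log2 ratio of the summed markers -0.36). With 1 library left out, the log2FC in A+/wt/wt over A-/wt/wt ranged from -0.10 to 0.26 for *Abca1*, -0.05 to 0.24 for *Lrp1* and -0.44 to 0.12 for *Clu*. For P522R in APP/PS1 microglia it ranged from -0.03 to 0.41 for *Abca1*, -0.12 to 0.15 for *Abcg1*, -0.11 to 0.28 for *Lrp1*, -0.09 to 0.19 for *Lipa* and -0.10 to 0.30 for *Ch25h*. In cortex it ranged from -0.10 to 0.05 for *Apoe*, -0.06 to 0.08 for *Abca1*, -0.15 to 0.03 for *Lrp1*, -0.02 to 0.07 for *Clu* and -0.01 to 0.11 for *Lipa*. For *Ch25h* it ranged from -0.07 to 0.49 in males and from -0.14 to 0.45 in the difference of effects. In males, *Lrp1* was also not called with DESeq2 size factors (adjusted p = 0.0505), without a filter (0.0896) or with limma (0.0538), with a range of 0.000774 to 0.236 over its settings.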
